A study of Mus musculus with 12 samples.

Results

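The mitochondrial ribosome is the particle that makes proteins inside mitochondria. It reads the messenger RNAs of the mitochondrial genome, all of which encode subunits of the respiratory chain and the ATP synthase, while its own proteins are encoded in the nucleus, made in the cytosol and imported. It has a small subunit that binds messenger RNA and decodes it and a large subunit that joins the amino acids. Some of its proteins have counterparts in bacterial ribosomes and others were gained by mitochondria. Brown adipose tissue (BAT), which makes heat through UCP1, is densely packed with mitochondria, whereas adipocytes of subcutaneous white adipose tissue (scWAT) hold few unless they take on a brown-like state.

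The genes described here are those whose symbol begins with Mrpl (named for the large subunit) or Mrps (small subunit) followed by a digit. They were found through the transcript accession that each array probe carries, and 78 such genes were on the array, of 20660 genes with a named probe. A further 6 symbols of this form in the gene table are pseudogenes and have no probe. The 78 genes had 100 probes, 56 genes having 1 and 22 having 2, and each gene was read from its brightest probe over the 12 arrays. By structure, 26 were counted to the small subunit and 51 to the large one, the latter including Mrps30 and Mrps18a, and Mrps36, also known as a component of the 2-oxoglutarate dehydrogenase complex, was counted to neither. Relatives in bacteria were assigned to 46 of them and 32 were taken as particular to mitochondria. Mrps18a and Mrps18b were counted to the 32, although their paralog Mrps18c was counted to the 46.

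RNA of scWAT and BAT from wild-type (WT) and Lr11 -/- mice was hybridised to single-colour Agilent arrays, with 3 arrays in each of the 4 groups of genotype and tissue. All animals were C57Bl6/J males given as 12 weeks old, the Lr11 -/- mice lacking LR11 (gene symbol Sorl1) in every tissue and the WT mice being littermates, and all were on a high-fat diet with 60% of calories from fat. The labels give the diet both as 4 weeks and as running from weaning, so its length is open. Nothing in the labels says that the 3 arrays of a group came from separate animals, so p values measure the spread between these arrays, and in whole tissue fewer cells of a type and less RNA per cell cannot be told apart. A level is the log2 intensity minus the 75th percentile of its array, so that a level of 0 equals that percentile, and levels are compared between groups for the same probe only. Differences are in log2 units, came from limma fits to 32121 probes, each seen well above background by every array of 1 or more groups, and are called where the p adjusted over these probes (Benjamini-Hochberg) was under 0.05. Of the 78 genes, 77 were tested, and each of these was well above background on all 12 arrays. Mrpl21 was not well above background on any array (levels from −7.36 to −5.77) and was left out of every count.

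Several arrays stood apart from the rest of their group. Sorl1 followed the labels, with levels of 0.11 to 1.21 on the WT arrays and −3.93 to −2.45 on the Lr11 -/- arrays. Ucp1, which marks brown adipocytes, was at −4.63, −4.52 and 2.92 on WT scWAT replicates 1 to 3 and at 4.39, 9.75 and 10.05 on Lr11 -/- scWAT replicates 1 to 3, against 9.45 to 10.07 on the 6 BAT arrays. Markers of skeletal muscle (the 4 tested of 8 genes) summed to linear levels of 515 to 2777 on 5 arrays, where all 8 were detected, namely WT scWAT replicate 3, Lr11 -/- scWAT replicate 1, WT BAT replicates 1 and 3 and Lr11 -/- BAT replicate 1, and to 1.11 to 4.98 on the other 7, where 3 to 5 were detected. WT scWAT replicate 2 had the lowest sum of 6 adipocyte markers (422 against 912 to 2255) and the highest sum of 5 macrophage markers (311 against 46.3 to 103). Replicate 1 of each group belongs to a first array series and replicates 2 and 3 to a second. The first-series scWAT arrays share a slide, the first-series BAT arrays share another, and the second series is on a slide of its own.

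The median level of the 77 genes was 3.24, 2.51 and 3.29 on the WT scWAT arrays, 3.41, 4.56 and 4.55 on the Lr11 -/- scWAT arrays, 4.33, 4.56 and 4.33 on the WT BAT arrays and 4.64, 4.35 and 4.50 on the Lr11 -/- BAT arrays, in the order of replicates 1 to 3. The WT scWAT arrays were thus the low ones, and Lr11 -/- scWAT replicate 1 lay near them while the other 2 arrays of its group lay among the BAT arrays. WT scWAT had the lowest of the 4 group means for all 77 genes, as it had for 44.4% of all tested probes. WT scWAT replicate 2 was the lowest of the 12 arrays for 70 genes. In 56 genes the means rose from WT scWAT over Lr11 -/- scWAT and WT BAT to Lr11 -/- BAT, and in 17 the mean of Lr11 -/- scWAT was above that of WT BAT. For the counts of 70, 56 and 17 the shares of all tested probes were not computed. They are therefore not a result about the family alone.

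**Figure D1:**
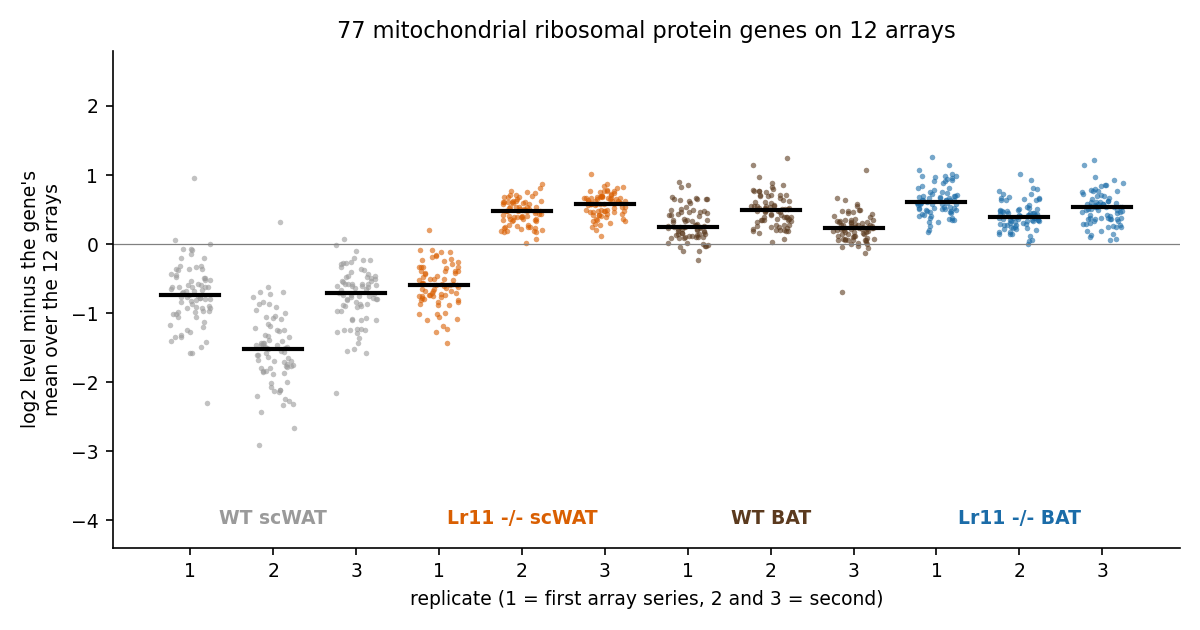
Each point is 1 of the 77 tested genes on 1 of the 12 arrays (x axis, replicates by group), drawn as its log2 level minus its own mean over the 12 arrays (y axis), and black bars are medians over the genes. The WT scWAT arrays and Lr11 -/- scWAT replicate 1 lie below 0 for most genes and the other 8 arrays above it.

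Between the depots of WT mice, 57 of the 77 genes were called higher in BAT than in scWAT and 0 were called lower, where 15.7% of all tested probes were called higher. The median difference was 1.26 on the log2 scale, or 2.40-fold, with quartiles of 0.95 and 1.67, against a median of 0.07 over all tested probes. At an unadjusted p under 0.05 there were 71 genes (23.7% of all probes), and in 73 every BAT array was above every scWAT array (24.3% of all probes). In the small subunit 18 of 26 genes were called (median 1.21), and in the large subunit 38 of 50 (median 1.28), and the subunits were not tested against each other. Of the genes with a bacterial relative 33 of 45 were called (median 1.31), and of those particular to mitochondria 24 of 32 (median 1.23).

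The 5 highest differences were those of Mrps36, Mrpl34, Mrps27, Mrpl39 and Mrps35, from 3.30 down to 2.19. Mrps36 had levels of 3.09, 2.48 and 3.83 in WT scWAT, 4.33, 6.10 and 6.21 in Lr11 -/- scWAT, 6.22, 6.64 and 6.46 in WT BAT and 6.37, 6.40 and 6.53 in Lr11 -/- BAT. It was 9.88-fold higher in BAT than in scWAT of WT mice (log2 difference 3.30, SE 0.48, adjusted p = 0.00329 from limma), and its second probe gave 3.07. The 3 WT scWAT arrays were well apart from the 3 BAT arrays, and Lr11 -/- scWAT replicate 1 lay between them. Mrpl34, a small protein of the large subunit with a bacterial relative, had levels of 2.84, 2.09 and 2.27 in WT scWAT, 2.99, 5.01 and 5.20 in Lr11 -/- scWAT, 5.32, 5.57 and 5.09 in WT BAT and 5.68, 5.34 and 5.63 in Lr11 -/- BAT. Its WT depot difference was 2.92 (SE 0.49, adjusted p = 0.00465), and here Lr11 -/- scWAT replicate 1 was within 1 log2 unit of all 3 WT scWAT arrays.

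Mrps27, a pentatricopeptide repeat protein of the small subunit that is found only in mitochondria, differed by 2.33 (SE 0.40, adjusted p = 0.00491). It had levels of −0.49, −1.61 and −0.53 in WT scWAT, 0.15, 1.45 and 1.41 in Lr11 -/- scWAT, 1.68, 1.60 and 1.08 in WT BAT and 1.98, 1.62 and 1.60 in Lr11 -/- BAT. Mrpl39 and Mrps35, both particular to mitochondria, differed by 2.20 (SE 0.39, adjusted p = 0.00534) and 2.19 (SE 0.34, adjusted p = 0.00403). Mrpl39 depended on the probe, its dimmer second probe giving 0.81.

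**Figure D2:**
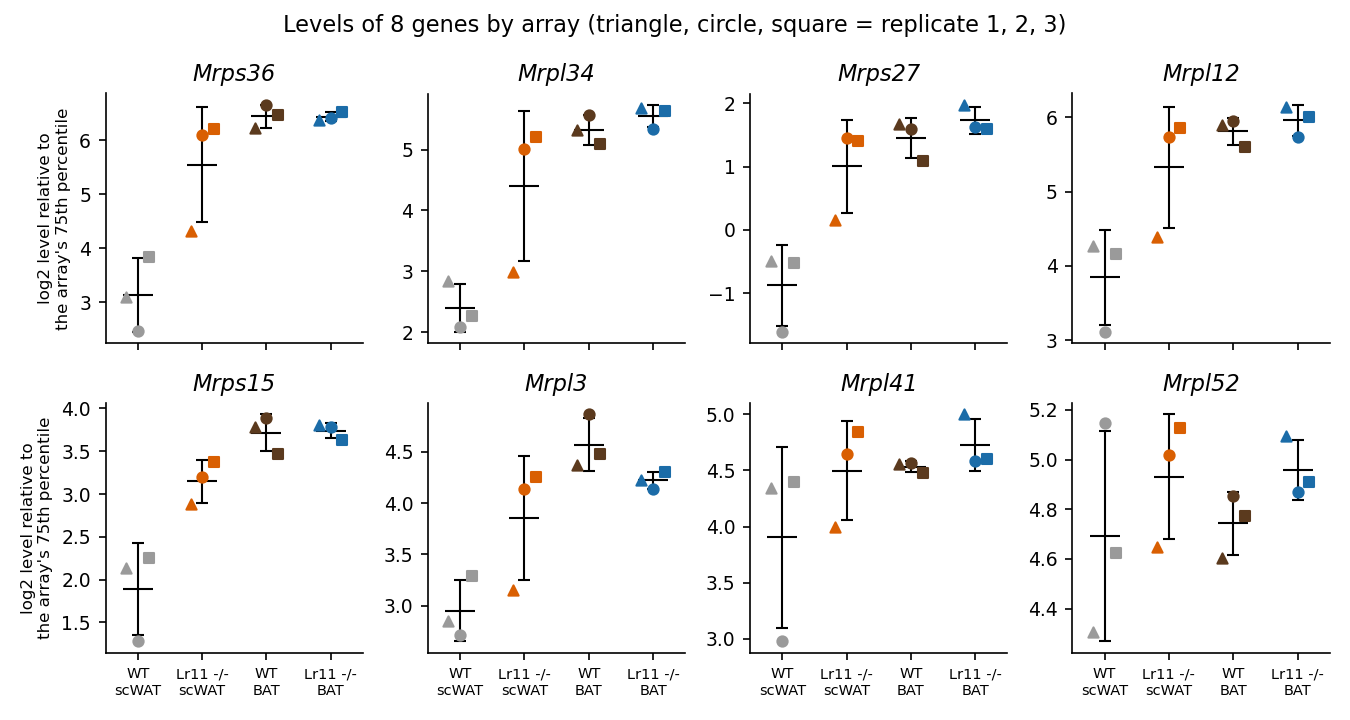
Log2 levels relative to the 75th percentile of the array (y axis, its own scale for each gene) are shown for 8 genes in the 4 groups, with triangles, circles and squares for replicates 1, 2 and 3 and bars for the mean ± SD (n = 3). Mrps36, Mrpl34, Mrps27, Mrpl12 and Mrps15 were low in WT scWAT and high in both BAT groups, and Mrpl52 was not.

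Genes with known roles were spread over this range. Mrpl12, which sits on the stalk of the large subunit and also binds the mitochondrial RNA polymerase, had levels of 4.27, 3.12 and 4.16 in WT scWAT and 5.89, 5.94 and 5.60 in WT BAT, a difference of 1.96 (SE 0.41, adjusted p = 0.00907). The 3 arrays of each depot did not overlap. Mrps15, a small-subunit protein that contacts the ribosomal RNA, differed by 1.82 (SE 0.27, adjusted p = 0.00356), and Mrpl3, a large-subunit protein with a bacterial relative, by 1.62 (SE 0.30, adjusted p = 0.00622). Mrps12, which lies at the decoding centre, differed by 1.07 (SE 0.29, adjusted p = 0.0236), Mrps30 by 1.24 (SE 0.34, adjusted p = 0.025) and Mrpl44, a relative of ribonuclease III, by 1.12 (SE 0.34, adjusted p = 0.0383). The paralogs Mrps18a, Mrps18b and Mrps18c derive from the same ancestral protein, the first being found in the large subunit and the others in the small. Their differences were 1.20 (adjusted p = 0.0337), 1.14 (adjusted p = 0.0605) and 0.78 (adjusted p = 0.0931), so that Mrps18a alone of them was called.

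At the low end the genes were not called. Mrpl52, a large-subunit protein particular to mitochondria, had levels of 4.31, 5.15 and 4.62 in WT scWAT, 4.65, 5.02 and 5.13 in Lr11 -/- scWAT, 4.60, 4.85 and 4.77 in WT BAT and 5.09, 4.87 and 4.91 in Lr11 -/- BAT. The groups overlapped, and the WT depot difference of 0.05 (SE 0.24, adjusted p = 0.896) turned to −0.16 under quantile normalization and to −0.27 without scaling. WT scWAT replicate 2, the lowest array for most of the family, was the highest of the 12 arrays for this gene. The other 4 of the 5 lowest were Mrpl27 (0.47, SE 0.31), Mrpl23 (0.51, SE 0.23), Mrps6 (0.51, SE 0.61) and Mrpl33 (0.58, SE 0.25). Mrps6 had the widest spread within WT scWAT, with levels of 5.68, 3.33 and 3.44. Of the genes named for their roles, Mrpl41 (0.63, SE 0.37), Mrpl32 (0.71, SE 0.28), which is matured by the m-AAA protease before it joins the ribosome, and Mrps22 (1.37, SE 0.50), a small-subunit protein in which human mutations cause mitochondrial disease, were not called either.

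The median of the depot difference in WT mice lay between 0.95 and 1.56 in every alternative, while the number of genes called moved. Shares of all probes called in the alternatives are not given here, so the counts are not a result about the family alone. The median lay between 1.03 and 1.45 when single arrays were left out. The count fell to 29 without WT scWAT replicate 2, to 31, 17 and 36 without WT BAT replicates 1, 2 and 3, to 29 without scaling, to 35 in a fit to the 6 WT arrays alone, to 15 with the slide as a block and to 21 without the 5 arrays on which muscle markers were high, which leaves 1 WT BAT array that is assumed to vary like the other groups. The 15 genes called with the slide as a block were all among the 57 and included Mrps36, Mrpl34, Mrps27, Mrpl39, Mrps35, Mrpl12, Mrps15 and Mrpl3. Within the second array series alone, where both depots share a slide, the median difference was 1.42 with 64 genes called. In the first series, where depot and slide cannot be told apart, it was 0.996 with 1 array a group and no test. Of 8 brown adipocyte markers 7 were called higher between the same groups with all arrays (15.7% of all probes). Their summed linear levels were 2.10 to 266 on the WT scWAT arrays and 2698 to 3469 on the WT BAT arrays. Between the same groups 3 of 6 adipocyte markers were called higher, with a median of 1.01. Of 5 macrophage markers 3 were called lower (9.13% of all probes), with a median of −1.81. The part of these markers in the result was not tested.

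Promoters of the genes were taken from RefSeq (build GRCm38.p6), each running from 250 bases before the annotated start to 50 bases after it, and 69 of the 78 genes had one. Of these promoters 36.2% held the letters CCGGAAG, the core bound by GABPA and other ETS factors, on either strand, against 9.12% of 27025 promoters of the same length over all genes. The letters AAGATGGCG, bound by YY1, were in 11.6% against 1.49%, and GCGCATGC, bound by NRF1, in 11.6% against 2.8%. CAAGGTCA, bound by the oestrogen-related receptors, was in 2.9% against 1.53%. At least 1 of the 4 was in 36 of the 69 promoters (52.2%) and in 13.9% of all promoters. GABPA, NRF1 and YY1 are known as factors that act on nuclear genes for mitochondrial proteins. A match is a run of letters and not a measured binding site. The promoters over all genes were not matched for CpG, which CCGGAAG, AAGATGGCG and GCGCATGC each contain. Of the 8 YY1 matches, 6 began 12 to 37 bases after the start. The promoters were rich in CpG (median observed over expected 0.818, against 0.389 over all promoters), and 0 of the 69 had TATAAA at 20 to 40 bases before the start, where 2.22% of all promoters had it.

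Promoters of 7 genes are shown because they span the range of the depot difference and the kinds of match. They read 5′ to 3′ on the strand of the gene, with matches to the 4 motifs, or their reverse complements, in capitals. Mrps36, with the highest difference, holds none of the 4 (chr13:100744610-100744909, minus strand).
Mrps36: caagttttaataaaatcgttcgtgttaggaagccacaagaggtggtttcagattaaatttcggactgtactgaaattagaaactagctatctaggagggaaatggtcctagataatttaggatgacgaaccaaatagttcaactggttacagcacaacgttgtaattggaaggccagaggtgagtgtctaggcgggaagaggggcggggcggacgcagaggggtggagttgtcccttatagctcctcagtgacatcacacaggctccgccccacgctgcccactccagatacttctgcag
Mrpl34 has a GABPA match 37 bases before the start (chr8:71464676-71464975, plus strand).
Mrpl34: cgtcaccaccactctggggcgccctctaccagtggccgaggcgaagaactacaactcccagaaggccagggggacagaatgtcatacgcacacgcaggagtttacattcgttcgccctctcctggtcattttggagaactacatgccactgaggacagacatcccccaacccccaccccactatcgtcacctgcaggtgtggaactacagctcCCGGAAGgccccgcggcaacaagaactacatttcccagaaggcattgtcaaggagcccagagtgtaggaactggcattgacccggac
Mrps27 has a GABPA match 48 bases before the start and a YY1 match 15 bases after it (chr13:99344536-99344835, plus strand).
Mrps27: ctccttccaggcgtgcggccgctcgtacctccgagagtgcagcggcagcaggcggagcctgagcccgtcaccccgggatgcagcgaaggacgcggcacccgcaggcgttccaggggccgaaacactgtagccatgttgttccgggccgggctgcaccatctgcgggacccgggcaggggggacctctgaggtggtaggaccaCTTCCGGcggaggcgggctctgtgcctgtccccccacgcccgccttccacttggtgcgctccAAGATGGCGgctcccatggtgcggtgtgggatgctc
Mrpl39 has a pair of overlapping NRF1 matches, 125 and 123 bases before the start (chr16:84735195-84735494, minus strand).
Mrpl39: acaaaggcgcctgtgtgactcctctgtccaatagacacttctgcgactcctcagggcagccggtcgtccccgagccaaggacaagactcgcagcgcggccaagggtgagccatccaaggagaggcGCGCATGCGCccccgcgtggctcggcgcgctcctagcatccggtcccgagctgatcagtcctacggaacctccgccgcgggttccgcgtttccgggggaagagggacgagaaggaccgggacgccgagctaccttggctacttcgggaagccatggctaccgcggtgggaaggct
Mrps15 is 1 of 2 genes with a match for the oestrogen-related receptors, 126 bases before the start (chr4:126046678-126046977, plus strand).
Mrps15: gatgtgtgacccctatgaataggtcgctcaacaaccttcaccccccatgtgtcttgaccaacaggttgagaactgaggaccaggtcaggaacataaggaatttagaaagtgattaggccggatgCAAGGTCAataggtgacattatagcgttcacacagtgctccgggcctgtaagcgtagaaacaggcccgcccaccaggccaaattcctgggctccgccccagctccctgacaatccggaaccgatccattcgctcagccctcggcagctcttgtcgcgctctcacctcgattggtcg
Mrps12 shares 246 bases of its promoter with Sars2, the mitochondrial seryl-tRNA synthetase, which is transcribed the other way (chr7:28741772-28742071, minus strand, with a GABPA match 2 bases after the start).
Mrps12: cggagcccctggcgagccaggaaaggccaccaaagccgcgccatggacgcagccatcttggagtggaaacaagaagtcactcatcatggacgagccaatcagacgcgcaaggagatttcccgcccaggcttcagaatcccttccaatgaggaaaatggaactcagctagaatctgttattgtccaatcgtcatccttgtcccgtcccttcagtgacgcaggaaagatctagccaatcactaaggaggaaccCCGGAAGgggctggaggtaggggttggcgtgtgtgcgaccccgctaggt
Mrpl52, with the lowest difference, has 2 GABPA matches, 47 bases before and 3 bases after the start (chr14:54426659-54426958, plus strand).
Mrpl52: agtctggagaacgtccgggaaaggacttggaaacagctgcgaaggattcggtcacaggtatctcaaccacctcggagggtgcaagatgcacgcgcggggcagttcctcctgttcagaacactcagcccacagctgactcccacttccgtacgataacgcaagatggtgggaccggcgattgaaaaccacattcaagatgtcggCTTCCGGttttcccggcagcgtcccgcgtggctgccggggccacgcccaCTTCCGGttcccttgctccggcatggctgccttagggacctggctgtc

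Genes with a GABPA match had a median WT depot difference of 1.19 (24 tested genes) and those without 1.32 (44). With an NRF1 match the median was 1.16 (8) and without 1.25 (60), with a YY1 match it was 1.72 (8) and without 1.22 (60), and with a match for the oestrogen-related receptors it was 1.51 (2) and without 1.23 (66). These medians are given as a description and were not tested. A promoter that shares bases with that of a gene on the other strand was more frequent in the family, in 22 of 69 (31.9%) against 10.3% of all promoters. Mrps11 and Mrpl46 share such a region with each other, over 141 bases, and the other 20 share it with genes outside the family. Of these 20 partner genes 18 were tested, and 6 were called higher in BAT of WT mice and 0 lower. Of all tested probes 15.7% were called higher and 9.13% lower. The median difference of the partners was 0.48, which compares with 1.30 for the family genes they adjoin. Sars2 (1.09, SE 0.28, adjusted p = 0.0189) stood beside Mrps12 at 1.07, and Ndufb5, a subunit of respiratory complex I (2.34, SE 0.51, adjusted p = 0.0105), beside Mrpl47 at 1.83. Fau, which encodes a protein of the cytosolic ribosome, was at −0.48 (SE 0.21, adjusted p = 0.117) beside Mrpl49 at 1.30 though their promoters share 291 bases, and Psma2, a proteasome subunit, was at 0.22 (SE 0.23, adjusted p = 0.503) beside Mrpl32 at 0.71.

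In Lr11 -/- mice the median depot difference was smaller than in WT, and no gene of the family passed the threshold (0 called, against 0.0218% of all probes called higher). The WT depot difference minus that in Lr11 -/- is the same contrast as the interaction given below. In it limma called 0 genes of the family (0% of all probes). The median difference between BAT and scWAT was 0.39, with 74 of 77 genes above 0. By limma 4 genes had an unadjusted p under 0.05 (5.59% of all probes), and in 13 the arrays of the depots did not overlap (14% of all probes). Mrpl34 (1.15, SE 0.49), Mrps35 (0.90, SE 0.34), Mrps36 (0.89, SE 0.48), Mrpl39 (0.88, SE 0.39) and Mrps2 (0.84, SE 0.44) were the 5 highest. Mrps10 (−0.07, SE 0.34), Mrpl1 (−0.05, SE 0.34), Mrpl23 (−0.02, SE 0.23), Mrps6 (0.02, SE 0.61) and Mrpl52 (0.03, SE 0.24) were the 5 lowest. Lr11 -/- scWAT replicate 1 decided this median, which was 0.01 without that array. Within the second array series alone the median was −0.04, and in the first series it was 1.23, with 1 array a group. Array weights gave a median of 0.07 and 4 genes called, Mrpl18, Mrps15 and Mrps35 higher and Mrps10 lower, where they called 17% of all probes in either direction.

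The order of the genes by depot difference was similar in the 2 genotypes, which share no arrays in this comparison. Over the 77 genes Pearson's r between both differences was 0.84 and Spearman's rho 0.80, as a description across genes that were measured on the same arrays. Of the 10 highest genes in WT 7 were among the 10 highest in Lr11 -/-, and of the 10 lowest 6 were shared. The median of the Lr11 -/- difference was 0.01 without Lr11 -/- scWAT replicate 1, with 42 of 77 genes above 0. The order of the genes was not compared without that array.

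**Figure D3:**
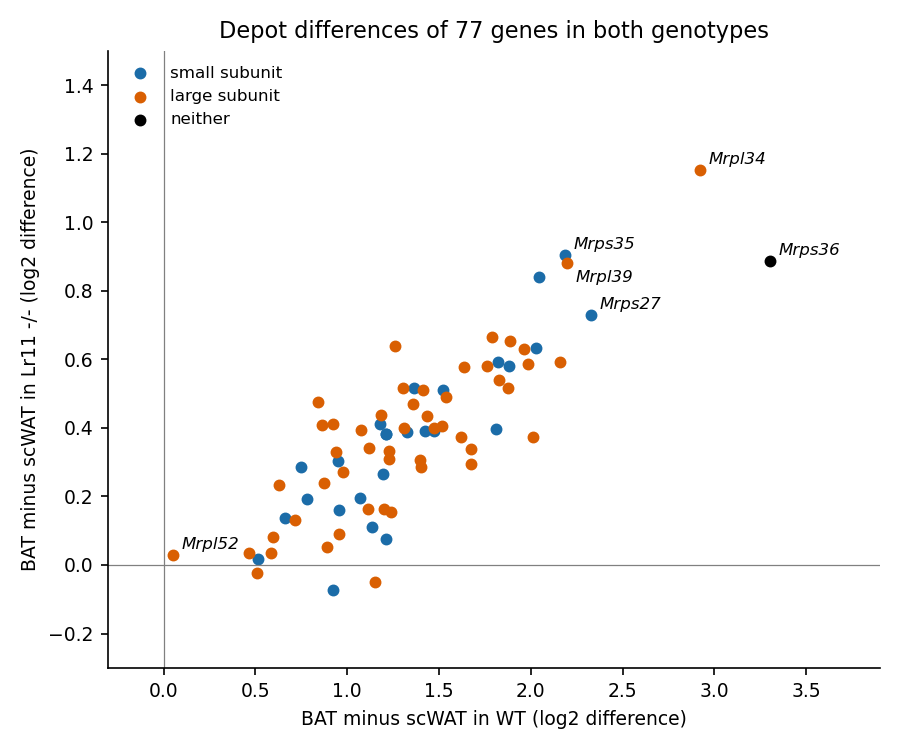
Each point is 1 of the 77 genes, with its log2 difference between BAT and scWAT in WT mice on the x axis and in Lr11 -/- mice on the y axis, coloured by ribosomal subunit. The points rise together (r 0.84), from Mrpl52 near 0 to Mrpl34 and Mrps36, while the y axis spans less than the x axis. The median on the y axis was 0.01 without Lr11 -/- scWAT replicate 1, and r was not computed without that array.

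The comparison of genotypes in scWAT asks whether white fat without LR11 differs in these genes. In Lr11 -/- scWAT 17 of the 77 genes were called higher than in WT and 0 lower, where 3.4% of all tested probes were called higher. All 77 differences were above 0, with a median of 1.16 (2.24-fold), quartiles of 0.85 and 1.40 and a median over all probes of 0.04. At an unadjusted p under 0.05 there were 67 genes (16.8% of all probes), and in 37 the arrays of the genotypes did not overlap (11.7% of all probes). The small subunit had 6 of 26 genes called (median 1.16) and the large subunit 10 of 50 (median 1.14).

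The 17 genes called were Mrps36, Mrpl34, Mrps27, Mrpl38, Mrpl42, Mrps5, Mrpl35, Mrpl9, Mrps35, Mrpl39, Mrpl47, Mrps24, Mrpl15, Mrpl1, Mrps15, Mrps28 and Mrpl45. Mrps36 was 5.33-fold higher (log2 difference 2.41, SE 0.48, adjusted p = 0.0354), Mrpl34 4.01-fold (2.0, SE 0.49, adjusted p = 0.0468) and Mrps27 3.68-fold (1.88, SE 0.40, adjusted p = 0.0393). Mrpl38, a large-subunit protein particular to mitochondria, had levels of 0.66, 0.09 and 1.16 in WT scWAT and of 1.66, 2.85 and 2.83 in Lr11 -/- scWAT, a difference of 1.81 (SE 0.35, adjusted p = 0.0339). Its genotypes did not overlap, with replicate 1 of Lr11 -/- the nearest to WT. Mrpl42 had levels of 1.94, 0.62 and 2.83 in WT scWAT and of 3.21, 3.66 and 3.92 in Lr11 -/- scWAT, a difference of 1.80 (SE 0.45, adjusted p = 0.0493). Mrps15 differed by 1.26 (SE 0.27, adjusted p = 0.0398). All 3 of its Lr11 -/- scWAT arrays were close together, at 2.88, 3.20 and 3.37 against 2.14, 1.28 and 2.25 in WT.

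Other genes with known roles had differences of similar size that were not called. They were Mrpl12 (1.48, SE 0.41, adjusted p = 0.0591), Mrps18a (1.34, SE 0.36, adjusted p = 0.0542), Mrps30 (1.29, SE 0.34, adjusted p = 0.0533), Mrps18b (1.27, SE 0.40, adjusted p = 0.0805), Mrps22 (1.23, SE 0.50, adjusted p = 0.142) and Mrps12 (1.08, SE 0.29, adjusted p = 0.0547). Mrpl44 (1.01), Mrpl3 (0.90), Mrps18c (0.84) and Mrpl32 (0.80) followed with adjusted p of 0.0923 to 0.122. The 5 lowest were Mrpl52 (0.24, SE 0.24), Mrpl27 (0.54, SE 0.31), Mrpl40 (0.58, SE 0.37), Mrpl41 (0.59, SE 0.37) and Mrps26 (0.60, SE 0.29). Mrpl52 turned to −0.0077 without scaling.

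The number of genes called in scWAT changed when single arrays were left out, including BAT arrays that are not part of this comparison. Lr11 -/- scWAT replicate 1 was the lowest array of its group for 76 of the 77 genes and below all 6 BAT arrays for 74, whereas replicates 2 and 3 both lay above all 3 WT scWAT arrays for 75. The shares of all tested probes with these positions were not computed. These positions are therefore not a result about the family alone. Without replicate 1 of Lr11 -/- scWAT 69 genes were called, all 17 among them, with a median of 1.51. Without replicate 2 or 3 of Lr11 -/- scWAT, without WT scWAT replicate 2 or without any 1 of the 6 BAT arrays 0 were called by limma, and the median stayed between 0.88 and 1.16 in those fits. Without WT scWAT replicate 1 or 3 there were 33 and 32. A fit to the 6 scWAT arrays alone and a fit to all probes without the filter on dim probes each called 0, and the fit without scaling called 2, Mrps36 and Mrpl38. Median scaling and the array series as a block called 7 each, the slide as a block called 3 and array weights called 60, where they called 12.6% of all probes. On the slide that holds the first-series scWAT arrays the median difference was 0.15 with 49 of 77 genes above 0, from 1 array a group. Within the second series it was 1.66 with 65 genes called. Apart from array weights, shares of all probes called in these fits are not given. Their counts are therefore not a result about the family alone.

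Cell type markers also differed between these arrays. The median of the family was lowest on WT scWAT replicate 2, which had the lowest sum of adipocyte markers and the highest of macrophage markers, and without it the median difference between the genotypes was 0.88. Muscle markers were high on 1 array of each genotype in scWAT, WT replicate 3 and Lr11 -/- replicate 1. Without the 5 arrays on which they were high the median difference was 1.65. The sum of 8 brown adipocyte markers was 24.3, 2.10 and 266 on the WT scWAT arrays and 401, 3424 and 3715 on the Lr11 -/- scWAT arrays, so that the array lowest in these markers was also lowest in the family, and the 2 highest were the same. Markers of epithelium (the 2 tested of 4 genes) summed to 2.72 on Lr11 -/- scWAT replicate 1, where all 4 were detected, and to 0.18 to 0.45 on the other 11 arrays. Markers of B lymphocytes (the 5 tested of 6 genes) summed to 3.62, 4.18 and 3.54 on the WT and 1.89, 2.79 and 3.53 on the Lr11 -/- scWAT arrays. Their median genotype difference was −1.22 and by limma 0 were called. At an unadjusted p under 0.05 by limma 3 were lower, as were 3468 of 32121 tested probes. The 6 adipocyte markers were all higher in Lr11 -/- scWAT (median 1.44), 3 of them at that p, as were 16.8% of probes. The 5 macrophage markers were all lower (median −0.94), 1 of them at that p. By limma 0 of either list were called. The 8 brown adipocyte markers had a median of 5.93, with 5 called higher (3.4% of all probes). The part of any of these in the result was not tested.

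In BAT the genotypes differed little. No gene of the family was called by limma (0, against 0.00623% of all probes called higher) and 0 had an unadjusted p under 0.05 (1.04% of all probes). The median difference was 0.20, with 73 of 77 genes above 0 and values from −0.35 to 0.39. The median SE of a gene was 0.35, so differences of this size could not be told from 0 with 3 arrays a group. In 11 genes every Lr11 -/- array was above every WT array (7.39% of all probes). Mrps2 (0.39), Mrpl46 (0.39), Mrps22 (0.38), Mrps6 (0.37) and Mrps14 (0.36) were the 5 highest. Mrpl3 was the lowest, with levels of 4.37, 4.87 and 4.48 in WT BAT and 4.23, 4.14 and 4.31 in Lr11 -/- BAT, a difference of −0.35 (SE 0.30). It was the only gene of the 77 for which every Lr11 -/- BAT array lay below every WT BAT array, as did 4.65% of all probes. Mrpl19 (−0.06), Mrps34 (−0.01), Mrps36 (−0.0039) and Mrps15 (0.03) were the others of the 5 lowest. Mrps36, the gene with the highest difference in scWAT, had a second probe at 0.16 (SE 0.54) in BAT. With an SE of that size its levels in the 2 BAT groups cannot be called equal. Without the 5 arrays on which muscle markers were high, which leaves 1 WT BAT array against 2 of Lr11 -/-, the median was −0.01. It was 0.32 in the first series with 1 array a group and 0.09 in the second.

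**Figure D4:**
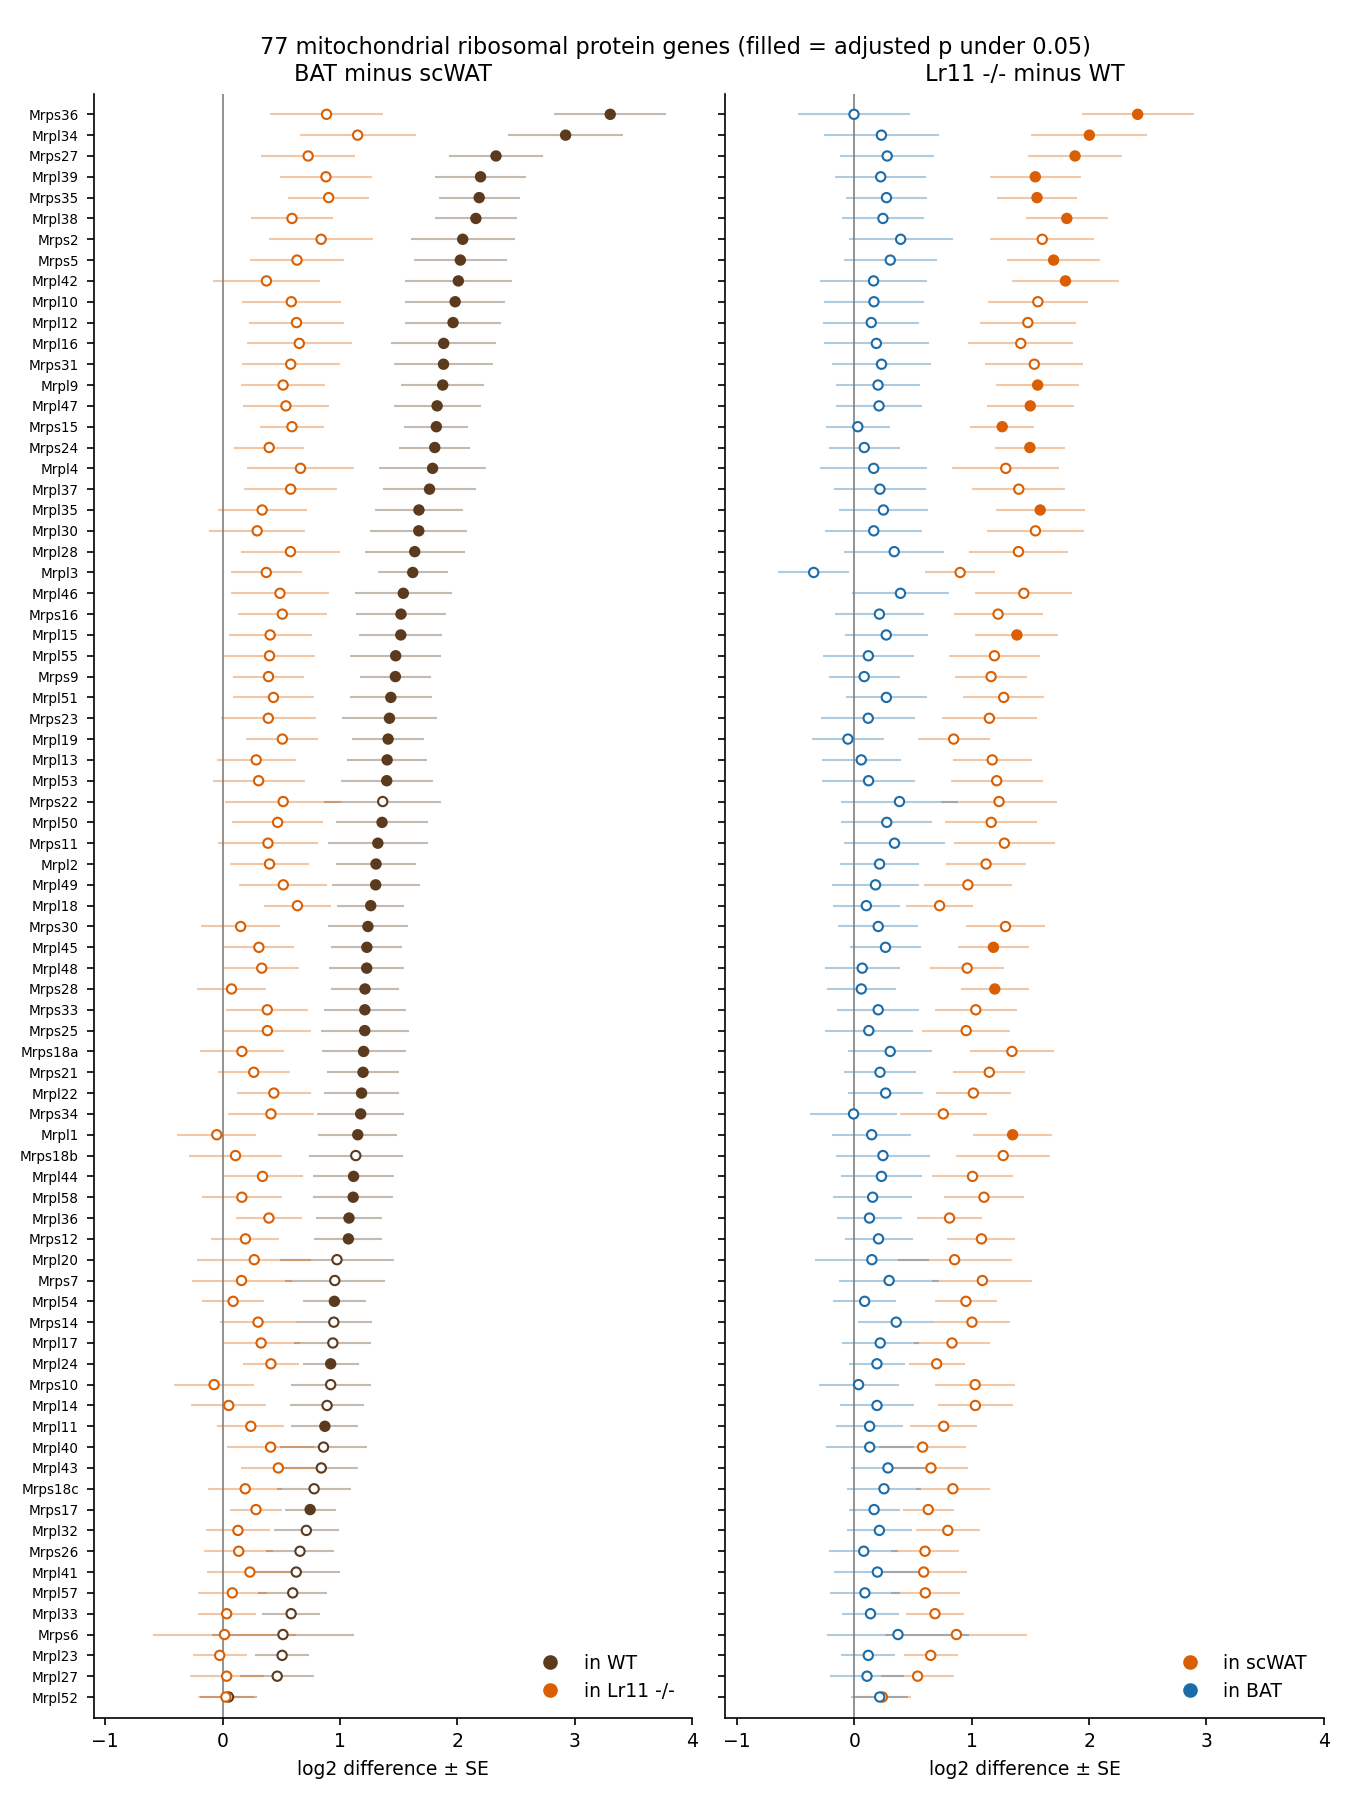
Log2 differences ± SE of the 77 genes (rows, ordered by the WT depot difference) are shown between depots in WT and Lr11 -/- mice on the left and between genotypes in scWAT and BAT on the right, filled where the adjusted p was under 0.05. The filled points are 57 WT depot differences and 17 genotype differences in scWAT, and the points for BAT genotypes lie around 0.20.

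The genotype effect in scWAT was above that in BAT for all 77 genes, with a median difference between both of 0.95. In a test of that interaction 0 genes were called by limma (0% of all probes) and 24 had an unadjusted p under 0.05 (6.65% of all probes). The 5 highest were Mrps36 (2.42, SE 0.68), Mrpl34 (1.77, SE 0.70), Mrpl42 (1.64, SE 0.64), Mrps27 (1.60, SE 0.57) and Mrpl38 (1.57, SE 0.49), with adjusted p of 0.383 to 0.416. The 5 lowest were Mrpl52 (0.02, SE 0.34), Mrpl43 (0.37, SE 0.45), Mrpl41 (0.39, SE 0.52), Mrpl27 (0.43, SE 0.44) and Mrpl40 (0.45, SE 0.53). Mrpl52 turned to −0.12 under quantile normalization and −0.17 without scaling. Without Lr11 -/- scWAT replicate 1, 15 genes were called and the median was 1.37. Array weights gave 19 (4.75% of all probes), and the second series alone gave 7 with a median of 1.56. The share of all probes called is given only for array weights, so the other counts are not a result about the family alone. In the first series, with 1 array a group, the median was −0.16 and 25 of the 77 genes were above 0.

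The rest of the machinery for mitochondrial gene expression gave values of the same order. Of all tested probes 15.7% were called higher in BAT than in scWAT of WT mice. Between the depots of WT mice 2 of 5 other proteins of the mitochondrial ribosome, whose symbols lie outside the naming rule, were called higher (median 1.03). These were Ptcd3 (1.81, SE 0.43, adjusted p = 0.0151) and Gadd45gip1 (1.37, SE 0.32, adjusted p = 0.0135). Of 17 tested ribosome assembly factors 13 were called higher (median 1.39), such as the GTPase Eral1 of the small subunit (1.74, SE 0.35, adjusted p = 0.00778). Of 14 translation factors 9 were (median 1.59), among them Tufm, the elongation factor Tu of mitochondria, at 2.48 (SE 0.36, adjusted p = 0.0034). The initiation factor Mtif2 was at −0.05 and was not called. Of 16 mitochondrial aminoacyl-tRNA synthetases 13 were called higher (median 1.30), and of 9 genes for mitochondrial transcription and DNA maintenance 6 (median 0.98), and no gene of these 5 lists was called lower.

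Nuclear subunits of the respiratory chain, the complexes that the mitochondrial ribosome supplies with their other subunits, had a larger median of 2.20. Of these 77 of 81 were called higher (15.7% of all probes). Proteins of the cytosolic ribosome had a median of −0.41, with 0 of 86 called higher, 11 called lower (9.13% of all probes were called lower) and 75 not called. That median was below 0 under each of the 4 scalings, but 44 genes were called lower under quantile normalization, 29 without scaling and 4 under median scaling. In scWAT the median genotype difference was 1.78 for the respiratory chain (38 of 81 called higher), 0.89 for the 5 other mitochondrial ribosome proteins (0 called), 1.0 for assembly factors (8 of 17), 1.15 for translation factors (3 of 14), 1.16 for the tRNA synthetases (4 of 16), 0.81 for mitochondrial transcription (3 of 9) and −0.14 for the cytosolic ribosome (0 of 86). In that comparison 3.4% of all tested probes were called higher. The lists were described by counts and medians and not tested against each other.

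**Figure D5:**
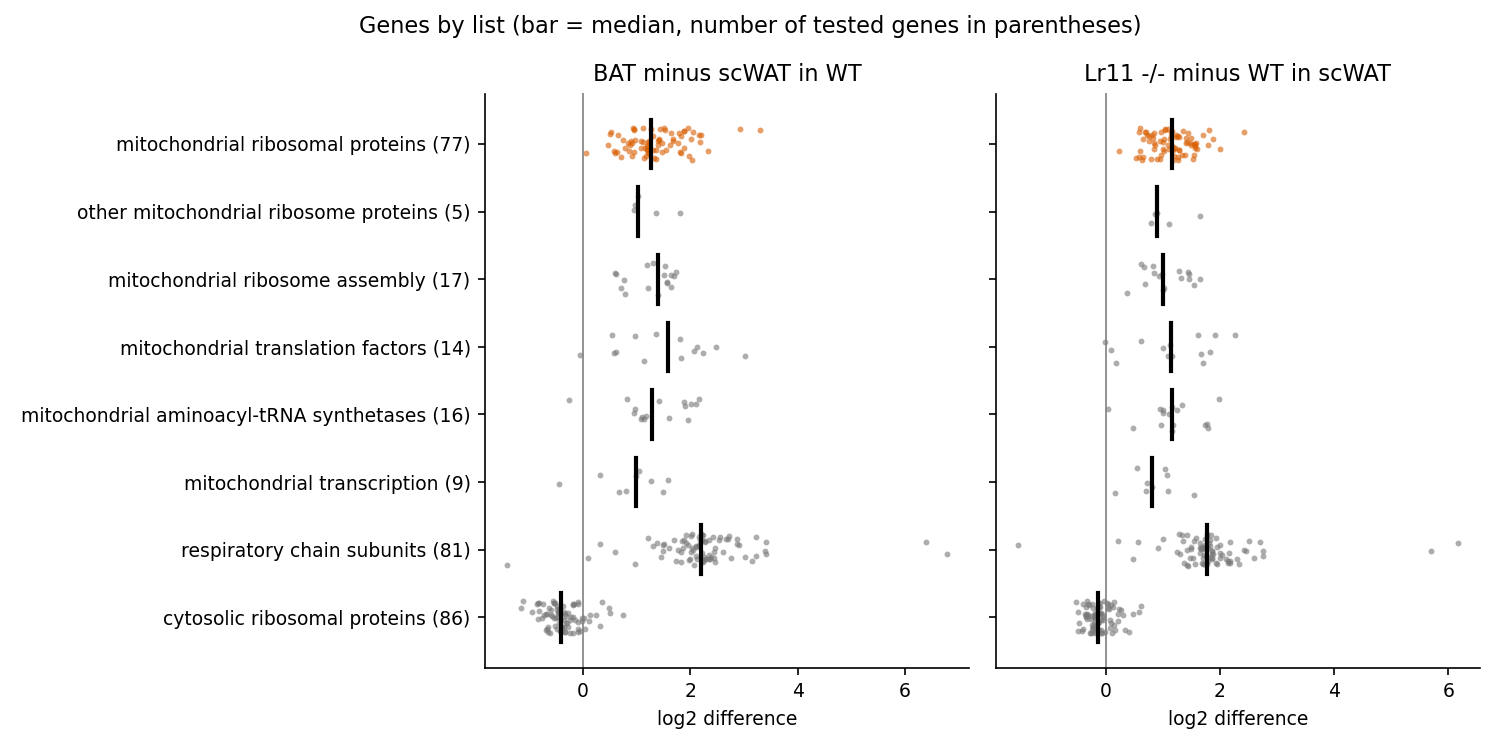
Points are the log2 differences (x axis) of the tested genes of 8 lists (rows, number of genes in parentheses) between BAT and scWAT of WT mice on the left and between genotypes in scWAT on the right, with black bars for medians. The mitochondrial ribosomal proteins have medians of 1.26 and 1.16, between those of the respiratory chain (2.20 and 1.78) and the cytosolic ribosome (−0.41 and −0.14).

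Where a gene had a second probe, this mostly gave the same picture. Of the 22 second probes 20 had the same sign as the brightest probe in the WT depot difference and 20 in the scWAT genotype difference, with median gaps of 0.22 and 0.20. The exceptions in sign were the dimmer probes of Mrpl41 (−0.20 between WT depots and −0.26 between genotypes in scWAT) and Mrps25 (−0.54 and −0.42). Mrps25 (1.21 and 0.95 by its brightest probe) and Mrpl39 (2.20 and 1.54, against 0.81 and 0.20) differed by more than 1 log2 unit between their probes, and which of them follows the transcript was not tested.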

How the data were processed

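Total RNA of scWAT and BAT was hybridised by the authors to 12 single-colour Agilent arrays, and the deposited scanner files hold spot intensities that the authors' Feature Extraction software (10.10.1.1 in the file headers) had background-corrected. Here log2 of the processed intensity minus each array's 75th percentile was taken over spots outside controls, outlier spots (128 to 181 an array) were left out and spots of a probe were averaged. The 75th percentile was an intensity of 374 to 632 and no spot was saturated, and with 3 arrays a group their number limits the precision. Probes were named through their RefSeq accessions (27235 of 55681 probes got a symbol). A probe was tested where it was well above background in all 3 arrays of at least 1 group. Group means were fitted over all 12 arrays in limma 3.58.1 (R 4.3.3), and p values were adjusted by Benjamini-Hochberg over the 32121 tested probes. The scripts were tested on simulated data. Genes were named as the 5 highest and 5 lowest of each comparison, those called against the majority, those not tested, and a set chosen for their roles; genes of other lists, partners of shared promoters and Mrps25 were named after their values were seen. Members and lists were chosen with earlier results of these data known. Alternatives covered scaling, the filter, background correction, batches, the arrays in the fit, array weights, probe choice and each array left out.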

Additional observations from a re-analysis of the deposited data

How the results depend on the processing

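Both the number of genes called and the median difference depended on the processing, and the cause was not tested. Shares of all probes called in the alternatives are given above only for array weights. The other counts are therefore not a result about the family alone. For the WT depot difference (57 called) the count was 29 without scaling, 15 with the slide as a block, 35 with the compared arrays alone and 21 without the 5 arrays high in muscle markers, an alternative chosen after seeing the data that leaves 1 WT BAT array. With each array left out it ran from 17 to 69 and the median from 1.03 to 1.45. For the Lr11 -/- depot difference (0 called) array weights called 4, and the median was −0.037 in the second series alone and without the 5 arrays and 1.23 in the first series alone. With each array left out the count was 0 and the median 0.0095 to 0.59. For the genotypes in scWAT (17 called) the count was 7 under median scaling and with the series as a block, 2 without scaling, 0 without the filter and with the scWAT arrays alone, 3 with the slide as a block, 65 in the second series alone, 60 with array weights and 42 without the 5 arrays. The median was 1.66 in the second series, 1.65 without the 5 arrays and 0.15 in the first series. With each array left out the count ran from 0 to 69 and the median from 0.88 to 1.51. For the genotypes in BAT 0 genes were called by limma in every alternative, with a median of 0.14 to 0.26 with each array left out. For the interaction (0 called) the second series gave 7 and a median of 1.56, array weights gave 19, and the median was 1.68 without the 5 arrays and −0.16 in the first series. With each array left out the count ran from 0 to 15 and the median from 0.69 to 1.37. Median scaling moved the median of all probes to 0.20 between WT depots and 0.17 between genotypes in scWAT, and no scaling to −0.25 and −0.20.

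Of the values of named genes, 61 values for 13 results changed sign under the alternatives other than the first array series alone, and 22 more did so in that series, which has 1 array a group and no test, at −1.19 to 0.97. None of these differences was called with all arrays. In the first series they include Mrps22 (−0.81), Mrps18b (−0.094), Mrps18c (−0.15), Mrpl40 (−0.88), Mrpl27 (−0.64), Mrpl41 (−0.34) and Mrps26 (−0.19) between genotypes in scWAT and Mrpl34 (−0.22) in the interaction. Between WT depots Mrpl52 was −0.16 under quantile normalization, −0.27 without scaling, −0.12 with the slide as a block and −0.072 in the second series, and it ran from −0.14 to 0.28 with each array left out. Between Lr11 -/- depots Mrpl52 was −0.031 under quantile normalization, −0.10 without scaling and with array weights, −0.14 with the slide as a block and −0.18 in the second series and without the 5 arrays, and it ran from −0.11 to 0.13. Mrps6 was there −0.050 under quantile normalization, −0.11 without scaling, −0.44 in the second series and without the 5 arrays and −0.22 with array weights, and ran from −0.42 to 0.37. Under median scaling Mrpl1 was 0.012 and Mrpl23 0.037, and with each array left out Mrpl1 ran from −0.30 to 0.14, Mrpl23 from −0.11 to 0.035 and Mrps10 from −0.51 to 0.18. Between genotypes in scWAT Mrpl52 was −0.0077 without scaling. In BAT Mrps15 was −0.068 under quantile normalization, −0.026 without scaling, −0.039 with array weights and −0.17 without the 5 arrays, Mrps34 was 0.043 and Mrps36 0.047 under median scaling, and Mrps36 was 0.079 as the median of its probes. With each array left out Mrps15 ran from −0.093 to 0.11, Mrps34 from −0.11 to 0.045, Mrps36 from −0.12 to 0.10 and Mrpl19 from −0.17 to 0.072. In the interaction Mrpl52 was −0.12 under quantile normalization, −0.17 without scaling and −0.024 under normexp, and ran from −0.17 to 0.25. Mrpl41 was −0.0069 there as the median of its probes and ran from −0.069 to 0.64.

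No paired analysis was possible because the labels carry no replicate numbers, and those used here follow the order of accessions. Normexp was run on median signals, chosen after seeing the data, in place of the planned mean signals, which were not run. A fit that leaves out an array or uses the second series alone assumes that small groups vary like the others. With 3 arrays a group and a median SE of 0.35, the smallest difference called between genotypes in scWAT was 1.18 (Mrpl45).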
